A study of Mus musculus with 8 samples.

Results

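The endothelial genes of the mouse heart are described here as read in whole hearts of SRC-2 KO and WT mice. The list holds 38 genes known to mark blood vessel endothelium, taken by name. No value of these arrays is in the rule, but the members were chosen with earlier results of these data known. They are 29 general endothelial genes, 4 genes of capillary endothelium, 3 of arterial endothelium and 2 of venous endothelium or endocardium. A value was obtained for 36 of the 38, among 18194 genes measured in all. Ly6c1 is read only by a probeset shared with Ly6c2 and was given no value, and Ly6a was not matched to a probeset in the annotation used.

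The tested mice were SRC-2 KO males (n = 4 hearts), in which Ncoa2, the gene for the transcriptional coactivator SRC-2, is ablated, and the comparison group was WT males (n = 4 hearts). All were of the C57B/6Jx129Sv strain, fed ad lib, unstressed, and 10 to 12 weeks old by the labels, and the methods describe male littermates matched for age. The knockout is a germline one, so it is not limited to the endothelium or to the heart. Each array read the RNA of 1 whole frozen heart, so endothelial transcripts were measured among those of every other cell of the organ, and fewer endothelial cells and less of a transcript per endothelial cell cannot be told apart.

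Endothelial cells line the heart chambers and all vessels, and most of those in the heart belong to the capillaries that run between the myocytes. They are held together by VE-cadherin, claudin-5 and related junction proteins, depend on VEGF and angiopoietin receptors, and keep their identity through ETS and SOX transcription factors. In the heart they also pass fatty acids from the blood to the muscle.

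Values are array signals on a linear scale, with every array scaled to the same trimmed mean, and each gene was read by its brightest probeset, a set of short probes for one transcript. Fold changes are log2 differences, KO minus WT, with a standard error. They were tested in limma over all 18194 genes by 2 fits: the common-variance fit, in which each gene's spread is drawn toward one shared value, and the trended fit, in which it is drawn toward that of genes of similar signal. Every standard error (SE) given is that of the common-variance fit, also where it stands beside a p-value of the trended fit. Those of further probesets come from a common-variance fit over all 34945 probesets with 1 gene, in which the spread is drawn toward another shared value. Ncoa2 had signals of 237, 259.6, 267 and 235 in the 4 KO hearts, against 1660.3, 2115, 1827 and 2134 in the 4 WT hearts (log2 fold change −2.95, SE 0.12, common-variance adjusted p = 5.8e-04, trended adjusted p = 9.2e-08). Each heart thus matched its genotype label. Array medians were 75.6 to 83.2 in KO and 77.0 to 87.3 in WT hearts. The 3′ minus 5′ difference of the Gapdh control probesets was −0.10 ± 0.04 in KO and −0.05 ± 0.06 in WT hearts, and that of the actin controls was 1.43 ± 0.07 in KO and 1.34 ± 0.03 in WT hearts (log2, SD, n = 4 each). The lowest endothelial signal in any heart was 66.8, and no member had a signal under 50, whereas 36.9% to 40.7% of each array's probesets lay under that value.

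Endothelial genes had lower mean signals in the SRC-2 KO hearts as a group, by a modest amount and without any single gene passing the test. The members were read in the same hearts, so they are not independent, and counts of members are no test of the genotype. Of the 36 members, 33 had a lower mean log2 signal in KO hearts, where 53.1% of all genes did. The median log2 fold change was −0.33 for the members and −0.03 for all genes, and the members ranged between −0.86 for Cldn5 and 0.70 for Rgcc. No member passed at an adjusted p under 0.05 in either fit, and few genes did at all: 0.022% of genes by the common-variance fit and 0.374% by the trended one. At an unadjusted p under 0.05, the common-variance fit had 6 members lower in KO hearts, against a background of 6.09% of all genes, and 1 higher, against 3.94%. The trended fit had 15 members lower, where the background was 7.22%, and 1 higher, where it was 5.33%. The 3 members that were not lower were Rgcc, Flt1 and Sema3g.

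**Figure D1:**
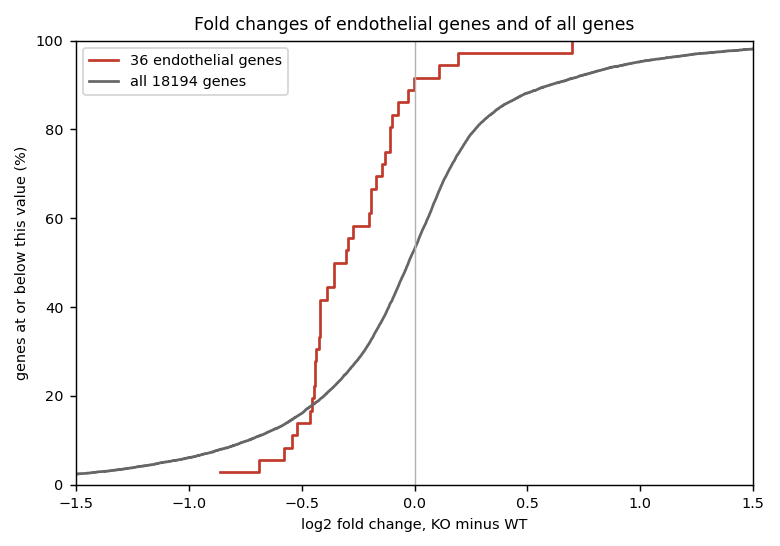
Cumulative share of genes (%) by log2 fold change, KO minus WT, for the 36 endothelial genes and for all 18194 genes. The endothelial line lies left of the line for all genes except at the most negative fold changes, with medians of −0.33 and −0.03.

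The lower values were not shared by all KO hearts. Averaged over the 36 genes, the log2 signal relative to the WT mean was −0.37, −0.26, −0.49 and 0.00 in KO replicates 1 to 4, and −0.12, −0.01, −0.01 and 0.14 in WT replicates 1 to 4. KO replicates 1 to 3 thus lay below every WT heart, and KO replicate 4 lay within the WT range. The mean of the KO hearts was −0.28 ± 0.21 (SD, n = 4), with an SD of 0.11 in WT hearts. KO replicate 4 had the highest KO signal for 27 of the 36 genes, and for 28.4% of all genes, while KO replicate 3 had the lowest signal of the 8 hearts for 21 of the 36 genes, and for 15.0% of all genes. Its Ncoa2 signal places KO replicate 4 among the KO hearts, and it was singled out after its endothelial values were seen.

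Cldn5 was the 1 member whose 4 KO signals all lay below its 4 WT signals. The background for such a split is 3.72% of all genes, so that 1 of 36 members is near the background share, and the reverse split, KO above WT, was met by 0 members against a background of 3.11%. This background moves with the scaling: 54.5% of all genes whose groups did not overlap were lower in KO hearts with the deposited scaling, 42.7% when arrays were centred on their medians and 48.8% after quantile normalization. KO replicates 1 to 3 lay below all 4 WT hearts for 18 of the 36 members, where the background is 8.28%, and above them for 1 member, Rgcc, where it is 6.32%. Leaving out any heart makes a split without overlap easier by construction. The count of members lower in every remaining KO heart was 2 without KO replicate 1 and 18 without KO replicate 4. It was 6 without WT replicate 1, 4 without WT replicate 2 and 3 without WT replicate 3. Of these settings, the share over all genes was obtained only for KO replicate 4, at 8.28%, so the other counts are not read as results.

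**Figure D2:**
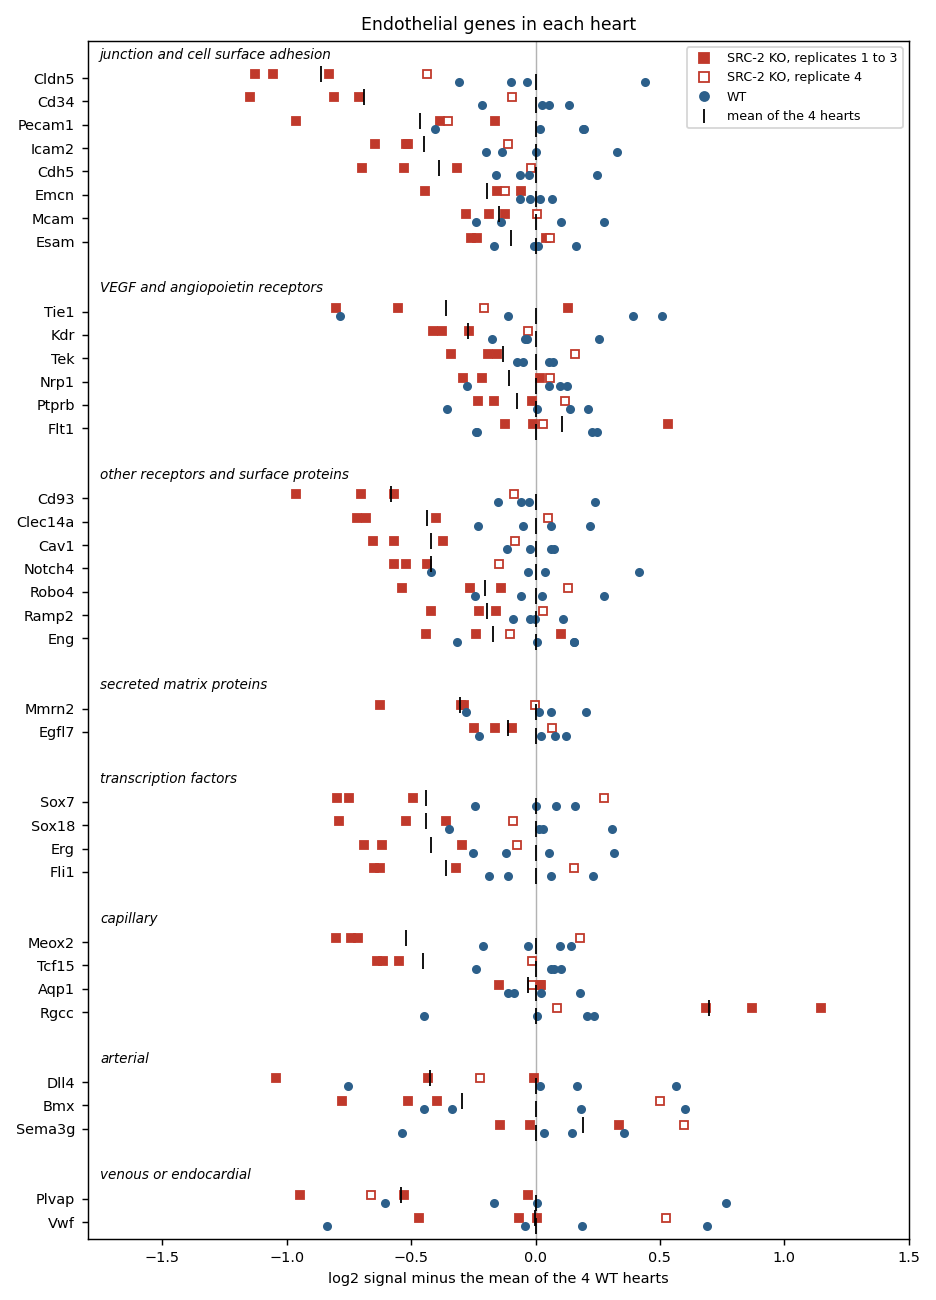
The 8 hearts' log2 signals, less the WT mean, for the 36 endothelial genes grouped by role. Red squares are KO hearts, with KO replicate 4 open, blue circles are WT hearts, and bars are means of 4 hearts. The filled squares lie left of the WT points for 18 genes, and the open square is the rightmost KO point for 27.

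Junction and surface adhesion proteins, which join endothelial cells to each other and to blood cells, had lower signals in KO hearts for 8 of 8 genes (median log2 fold change −0.42). Cldn5, claudin-5 of the tight junctions, had signals of 524, 612, 498 and 805 in the KO hearts, against 1018, 1062, 880.2 and 1475 in the WT hearts. The groups did not overlap, and KO replicate 4 lay nearest to WT. The log2 fold change was −0.86 (SE 0.22, common-variance adjusted p = 0.349, trended adjusted p = 0.0713), so that the KO level was 55.0% of the WT level. Cd34, a sialomucin on endothelial and progenitor cells, had 2861, 3066, 2261 and 4694 in the KO hearts, against 5204, 5104, 4319 and 5512 in the WT hearts. KO replicates 1 to 3 were lower than every WT heart and KO replicate 4 overlapped the WT range (log2 fold change −0.69, SE 0.23, adjusted p = 0.422 and 0.121 in the 2 fits).

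Icam2, an adhesion molecule bound by leukocyte integrins, had 1167, 1174, 1071 and 1551 in the KO hearts, against 2099, 1459, 1527 and 1678 in the WT hearts (log2 fold change −0.45, SE 0.17, trended adjusted p = 0.188). Cdh5, which encodes VE-cadherin of the adherens junctions, had 1860.5, 2158, 1654 and 2653 in the KO hearts, against 2637, 2401, 2571 and 3182 in the WT hearts (log2 fold change −0.39, SE 0.18, trended adjusted p = 0.255). Both genes showed the order of Cd34, with 3 KO hearts under the WT range and KO replicate 4 inside it. Pecam1, the junctional adhesion molecule CD31, was different in this respect: its signals were 627, 732, 420.1 and 641 in the KO hearts, against 619, 933, 829 and 937 in the WT hearts, and WT replicate 1 overlapped the KO hearts (log2 fold change −0.46, SE 0.22, trended adjusted p = 0.307). The other adhesion genes differed less. Emcn, a sialoglycoprotein of capillary and venous endothelium, Mcam and Esam, both adhesion molecules of the immunoglobulin family, had log2 fold changes of −0.20, −0.15 and −0.10 (trended adjusted p = 0.433, 0.761 and 0.742). Emcn had 1628 to 2129.5 in the KO hearts and 2124 to 2316 in the WT hearts, and here it was KO replicate 1, not replicate 4, that reached the WT range. Mcam (338 to 412 in KO and 347 to 495 in WT hearts) and Esam (2946 to 3678 in KO and 3148 to 3949 in WT hearts) overlapped more widely.

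The regions just upstream of Cldn5 and Cd34, the members with the lowest fold changes, and of Rgcc, the member with the highest, are shown to set their sequence beside their opposite directions. They are RefSeq windows of GRCm38.p6, each the 250 bases before an annotated start on the gene's own strand: Cldn5 at chr16:18776597-18776846 on the plus strand, Cd34 at chr1:194938571-194938820 on the plus strand and Rgcc at chr14:79301636-79301885 on the minus strand. Capitals mark matches, on either strand, to 7 short motifs. Those of ETS factors are CAGGAA and, as a second core that these factors also bind, CCGGAA. The motif of SOX factors was taken as ACAAT and that of GATA factors as AGATAA, and the half-site that nuclear receptors bind as AGGTCA. The last were the promoter elements known as the CCAAT box and, close to many gene starts, the TATAA box.
Cldn5: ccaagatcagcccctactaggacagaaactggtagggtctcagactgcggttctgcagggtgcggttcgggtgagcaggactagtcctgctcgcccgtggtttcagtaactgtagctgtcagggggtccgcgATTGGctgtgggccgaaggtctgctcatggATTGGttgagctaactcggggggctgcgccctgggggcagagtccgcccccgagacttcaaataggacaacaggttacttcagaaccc
Cd34: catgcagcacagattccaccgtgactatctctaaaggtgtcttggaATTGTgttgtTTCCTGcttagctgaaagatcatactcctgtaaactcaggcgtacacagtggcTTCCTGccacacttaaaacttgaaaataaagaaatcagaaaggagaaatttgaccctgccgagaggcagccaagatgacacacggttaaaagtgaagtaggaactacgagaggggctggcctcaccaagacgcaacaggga
Rgcc: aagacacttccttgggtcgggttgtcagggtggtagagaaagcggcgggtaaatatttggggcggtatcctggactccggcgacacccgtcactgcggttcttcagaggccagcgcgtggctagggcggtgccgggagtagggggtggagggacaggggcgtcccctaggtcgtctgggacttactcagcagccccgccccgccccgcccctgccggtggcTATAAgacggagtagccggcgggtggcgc
The Cldn5 window holds 2 matches to CCAAT, both on the opposite strand. That of Cd34 holds 2 to CAGGAA and 1 to ACAAT, all on the opposite strand, and that of Rgcc holds 1 TATAA. Windows were found for 23 of the 38 members, 29 windows in all. CAGGAA occurred in 37.9% of these and in 25.7% of 32851 windows of this length, CCGGAA in 3.45% and 12.0%, and AGGTCA in 20.7% and 14.0%. ACAAT occurred in 27.6% of the member windows and 27.7% of all windows, AGATAA in 3.45% and 9.99%, CCAAT in 20.7% and 33.8%, and TATAA in 34.5% and 22.8%. The motifs were picked after the values were seen, a match is no evidence of binding, and short motifs occur often by their length alone.

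The receptors for VEGF and the angiopoietins, through which endothelial cells receive growth and survival signals, had 5 of 6 genes lower in KO hearts. The median log2 fold change was −0.12, the nearest to 0 of the 5 role groups of general genes. Kdr, the main VEGF receptor (VEGFR2), had signals of 1709, 1889.5, 1748 and 2222 in the KO hearts, against 2010.4, 2216, 2206 and 2709 in the WT hearts. The pattern of KO replicates 1 to 3 below and KO replicate 4 within the WT range was present here with smaller gaps (log2 fold change −0.27, SE 0.14, trended adjusted p = 0.341). Tek, the angiopoietin receptor TIE2, had 1752, 1712, 1543 and 2180.5 in the KO hearts, against 1854, 2027, 1886 and 2049 in the WT hearts, so that KO replicate 4 was the highest of all hearts (log2 fold change −0.13, SE 0.13, trended adjusted p = 0.662). Flt1, the VEGF-binding receptor VEGFR1, had 1392, 2029, 1287 and 1433 in the KO hearts, against 1193, 1188, 1644 and 1663 in the WT hearts, and the groups overlapped in part, with KO replicate 2 the highest of all hearts and WT replicates 1 and 2 the lowest (log2 fold change 0.11, SE 0.20). Its 4 probesets had log2 fold changes between −0.01 and 0.12. Tie1, an orphan relative of Tek, the VEGF co-receptor Nrp1 and Ptprb, the phosphatase that acts on Tek, had log2 fold changes of −0.36, −0.11 and −0.07 (trended adjusted p = 0.647, 0.747 and 0.854). Tie1 varied widely within each genotype, with 253 to 484 in the KO hearts and 256 to 627 in the WT hearts. Nrp1 had 7748 to 9879 in the KO hearts and 7831 to 10349.8 in the WT hearts, and Ptprb had 2631 to 3357 in the KO hearts and 2416 to 3578 in the WT hearts, so that both overlapped almost in full.

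The remaining receptors and surface proteins were lower in KO hearts for 7 of 7 genes, with a median of −0.42. Cd93, a lectin-like receptor that binds the matrix protein multimerin-2, had signals of 3709, 4073, 3094 and 5681 in the KO hearts, against 5433, 5919, 5791 and 7127 in the WT hearts. Only KO replicate 4 reached the WT range, and there it exceeded 1 WT heart (log2 fold change −0.58, SE 0.20, adjusted p = 0.437 and 0.139 in the 2 fits). Cav1, the coat protein of caveolae, had 14452, 12601, 11879 and 17682 in the KO hearts, against 19509.8, 19714, 17268 and 18412 in the WT hearts (log2 fold change −0.42, SE 0.15, trended adjusted p = 0.164). Cav1 is also made by other cells of the heart, smooth muscle and fibroblasts among them, so its signal is not that of endothelium alone. Notch4, the Notch receptor of endothelium, had 671, 614, 634 and 820.1 in the KO hearts, against 933, 679, 891 and 1212 in the WT hearts, the same arrangement with WT replicate 2 close to the KO hearts (log2 fold change −0.42, SE 0.20, trended adjusted p = 0.307). Clec14a, a lectin-like relative of Cd93, Robo4, a receptor that steadies the vessel barrier, Ramp2, the partner of the adrenomedullin receptor, and Eng, a co-receptor for BMP ligands, had log2 fold changes of −0.44, −0.20, −0.19 and −0.17 (trended adjusted p = 0.362, 0.665, 0.470 and 0.643). Clec14a had 287 to 489 in the KO hearts and 403 to 549 in the WT hearts, and Ramp2 had 1544 to 2109.9 in the KO hearts and 1942 to 2229 in the WT hearts, each with KO replicate 4 alone in the WT range. Robo4 (387 to 614 in KO and 474 to 678 in WT hearts) and Eng (1573 to 2287 in KO and 1715 to 2376 in WT hearts) had 2 and 3 KO hearts in it.

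Both secreted matrix proteins had lower values. Mmrn2, multimerin-2 itself, had a log2 fold change of −0.30 (SE 0.17, trended adjusted p = 0.366), with KO signals of 3048, 3019, 2413 and 3716 and WT signals of 3063, 4283, 3760.2 and 3879.6. For Egfl7, a matrix protein that endothelial cells secrete, the answer depended on the probeset. The brightest gave 923, 1024.5, 979 and 1147 in the KO hearts, against 1193, 937, 1112 and 1158 in the WT hearts, which overlapped (log2 fold change −0.11, SE 0.13). The second brightest gave 647, 766, 719.8 and 1185 in the KO hearts, against 1291, 940.3, 1261 and 1554 in the WT hearts, with KO replicates 1 to 3 below all WT hearts. Log2 fold changes of the 3 further probesets were −0.62, −0.50 and −0.52, with standard errors of 0.24, 0.21 and 0.19.

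Transcription factors that set endothelial identity were lower in KO hearts for 4 of 4 genes, with a median of −0.43. For all of them KO replicates 1 to 3 lay below the 4 WT hearts, as they did for 8.28% of all genes. KO replicate 4 is set aside there after its values were seen. With all 4 KO hearts, 0 of these factors had every KO heart below every WT heart, against 3.72% of all genes. Erg, an ETS factor that maintains endothelial gene expression, had signals of 605, 484, 460.2 and 703 in the KO hearts, against 770.0, 683, 622 and 922 in the WT hearts (log2 fold change −0.42, SE 0.19, trended adjusted p = 0.310). Sox7, one of the SOX factors of vessel development, had 550.0, 657, 531 and 1119 in the KO hearts, against 781, 977, 925 and 1031 in the WT hearts. KO replicate 4 was here above every WT heart (log2 fold change −0.44, SE 0.25, trended adjusted p = 0.400). Sox18, its close relative, and Fli1, a second ETS factor, had log2 fold changes of −0.44 and −0.36 (SE 0.20 and 0.21, trended adjusted p = 0.252 and 0.400). Sox18 had 1432 to 2328 in the KO hearts and 1946 to 3066 in the WT hearts, and Fli1 had 834 to 1456 in the KO hearts and 1149.6 to 1536 in the WT hearts. The other probeset of Fli1 had one of 0.02 (SE 0.22).

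The 4 capillary genes diverged, with a median of −0.24. Meox2 and Tcf15, transcription factors known to act together on fatty acid uptake in heart endothelium, had KO replicates 1 to 3 below every WT heart. Meox2 had signals of 455.5, 475, 484 and 899.9 in the KO hearts, against 878, 777, 686 and 850.5 in the WT hearts, so that KO replicate 4 was the highest of all 8 hearts and the other KO hearts were the lowest (log2 fold change −0.52, SE 0.24, trended adjusted p = 0.290). Tcf15 had 756, 805, 769.8 and 1164 in the KO hearts, against 1239, 996, 1263 and 1229 in the WT hearts (log2 fold change −0.45, SE 0.17, trended adjusted p = 0.205). Aqp1, the water channel of capillary endothelium, had 9852, 9843, 8779 and 9609 in the KO hearts, against 9847, 9003, 10978 and 9139 in the WT hearts, with no separation (log2 fold change −0.03, SE 0.11). The standard error of Aqp1 is among the smallest of the members, and its direction changed with the scaling, to 0.03 when arrays were centred on their medians.

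Rgcc, a cell cycle regulator that marks heart capillaries, ran the other way. It had 2216, 1829, 1609.95 and 1061 in the KO hearts, against 1176, 734, 1156 and 1003 in the WT hearts. KO replicates 1 to 3 lay above every WT heart and KO replicate 4 within them, the reverse of the order of Cd34 (log2 fold change 0.70, SE 0.26, adjusted p = 0.465 and 0.172 in the 2 fits). Its KO level was 1.62 times its WT level. The second probeset of Rgcc gave 1087, 728, 866 and 424 in the KO hearts, against 515, 560.2, 511 and 682 in the WT hearts, and a log2 fold change of 0.38.

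Arterial and venous genes were fewer and more variable. Of the arterial genes, Dll4, a Notch ligand, and Bmx, a tyrosine kinase, had log2 fold changes of −0.43 and −0.30, and Sema3g, a secreted semaphorin, had one of 0.19 (SE 0.33, 0.34 and 0.25). Bmx was the dimmest member, with 66.8 to 162 in the KO hearts and 83.9 to 174 in the WT hearts. Dll4 had 90.3 to 185 in the KO hearts and 110.3 to 275 in the WT hearts, and Sema3g had 325 to 543 in the KO hearts and 248 to 459.8 in the WT hearts. None of the 3 showed a gap between the genotypes. Plvap, which forms the diaphragms of fenestrae and caveolae and marks venous endothelium and endocardium, had 952, 674, 504 and 614 in the KO hearts, against 639, 1650.3, 866 and 976 in the WT hearts, with WT replicate 2 far above the rest (log2 fold change −0.54, SE 0.32, trended adjusted p = 0.407). Vwf, von Willebrand factor, had 1058, 1398, 1468 and 2103 in the KO hearts, against 819, 2363, 1423 and 1668 in the WT hearts, a log2 fold change of −0.00 with an SE of 0.35. The spread among hearts of one genotype exceeded the difference for both genes, and the sign of Vwf changed with the scaling.

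Leaving out each heart in turn showed how far the group rested on single animals. The median log2 fold change of the members stayed below 0 in all 8 cases, between −0.45 without KO replicate 4 and −0.22 without KO replicate 3, and 32 or 33 of the 36 genes were lower each time. Without KO replicate 4, 8 members passed in the trended fit, while 0 passed when any of the other 7 hearts was left out, and 0 in the common-variance fit in all 8 cases. Of these, 7 were lower, where the background of that fit is 1.19% of all genes: Cldn5 (adjusted p = 0.0135), Cd34 (0.00973), Cd93 (0.0118), Meox2 (0.0169), Cav1 (0.0247), Tcf15 (0.0257) and Sox7 (0.0297). Rgcc was the eighth, higher in KO hearts (adjusted p = 0.0214), where the background is 0.572%. The heart left out was the one with the values closest to WT, so these calls describe the other 3 KO hearts and are not separate support for a difference between the genotypes.

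**Figure D3:**
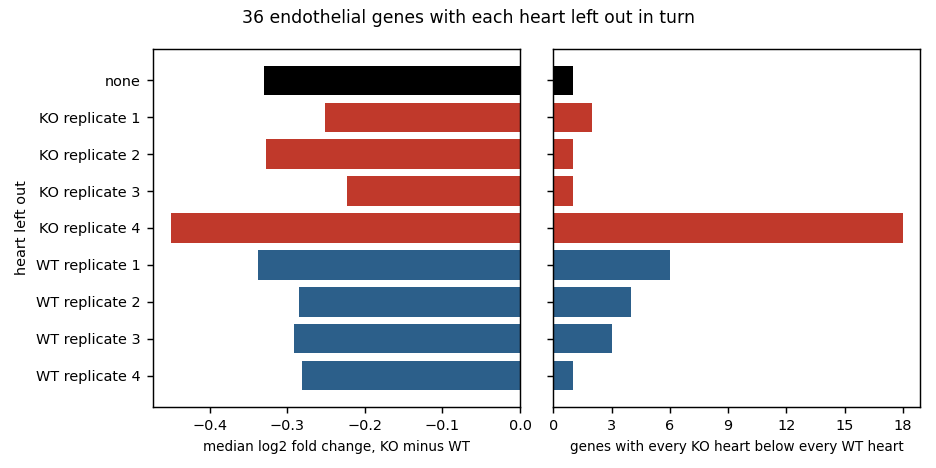
Results for the 36 endothelial genes with no heart left out (black) and with each KO (red) or WT (blue) heart left out: at left the median log2 fold change, KO minus WT, and at right the number of genes whose KO hearts all lie below all WT hearts. The median stays between −0.45 and −0.22, and the count reaches 18 without KO replicate 4, where the share over all genes is 8.28%. Leaving out any heart makes such a split easier by construction.

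The direction was mostly shared between probesets of a gene. Of the 36 members, 20 have 1 probeset and 16 have several. Among the 29 further probesets, 24 had the sign of the brightest one, and of the 23 with a mean signal of at least 100, 21 did. For Cd93, the second brightest probeset gave a log2 fold change of −0.60 beside −0.58, with 4 KO signals of 2309.9, 2219, 1504 and 3129.9 below the 4 WT signals (3146, 3171, 3142 and 4086). The 2 other probesets of Notch4 had higher values in KO hearts, 1.03 and 0.75 on the log2 scale (SE 0.51 and 0.91), at mean signals of 51.9 and 23.9, where much of the array lies.

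**Figure D4:**
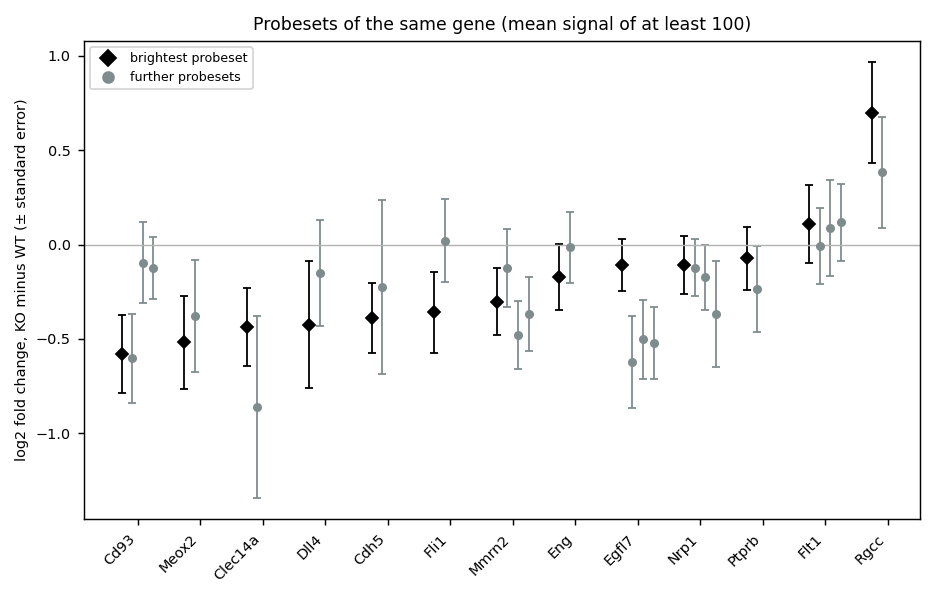
log2 fold change, KO minus WT, with its standard error, for each probeset with a mean signal of at least 100 of the 13 members that have more than 1 such probeset. Black diamonds are the brightest probeset of a gene and grey circles the further ones. All standard errors here are those of the fit over probesets, so those of the brightest differ from the ones in the text. Most points lie below 0, those of Egfl7 differ from each other, and both of Rgcc lie above 0.

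Further genes of endothelial pathways, from lists written by name, moved less evenly. Of 13 further endothelial transcription factors, 12 were lower in KO hearts (median log2 fold change −0.29). Ets1, an ETS factor, had −0.49 (SE 0.18, trended adjusted p = 0.162) and Sox17, an arterial SOX factor, 0.10. Of 16 Notch and ephrin genes, 14 were lower, with a median of −0.33, and Notch1 had −0.22. Nr2f2 (COUP-TFII), which specifies veins and is also active in atrial myocytes, fell in the trended fit (log2 fold change −1.16, SE 0.26, trended adjusted p = 0.0368, common-variance adjusted p = 0.317). Its signals were 657, 600.3, 352 and 639.5 in the KO hearts, against 1041, 1473, 1521 and 960.2 in the WT hearts, without overlap, and KO replicate 4 was here no higher than KO replicate 1.

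Ligands and functional genes showed no common direction. Of 9 VEGF and angiopoietin ligands and further receptors, 4 were lower, with a median of 0.07. Vegfa, a ligand of Kdr and Flt1, and Vegfb, a ligand of Flt1, had log2 fold changes of 0.15 and 0.25. The Tek ligands Angpt1 and Angpt2 had −0.38 and 0.07, and Flt4, the VEGF-C receptor, had −0.03. Of 12 genes of vascular tone and flow, 8 were lower (median −0.26). Klf2, a flow-induced factor, had −0.21, and Nos3, the endothelial nitric oxide synthase, had 985, 972, 765 and 1168 in the KO hearts, against 1173, 1179, 1229 and 1239 in the WT hearts. These groups did not overlap, but KO replicate 4 lay just under the lowest WT heart (log2 fold change −0.32, SE 0.14, trended adjusted p = 0.281). Of 7 genes by which heart endothelium handles fatty acids, 5 were lower with a median of −0.05, and Gpihbp1, which carries lipoprotein lipase to the capillary surface, and Fabp4, a fatty acid binding protein, had −0.04 and −0.09. The 9 junction and barrier genes measured had 7 lower (median −0.16), the 10 genes of BMP and ALK1 signalling had 8 lower (median −0.26), and the 4 leukocyte adhesion genes had 0 lower (median 0.55). No other gene of these pathway lists passed in either fit.

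Most markers of fibroblasts, pericytes and macrophages had lower values in KO hearts as well, and those of cardiac myocytes had higher ones, though none of these markers passed in either fit. All 11 fibroblast markers were lower in KO hearts (median log2 fold change −0.78), and their list means were −0.83, −0.67, −0.998 and −0.14 in KO replicates 1 to 4, against −0.24, 0.51, −0.21 and −0.07 in WT replicates 1 to 4. KO replicates 1 to 3 were again the lowest hearts and KO replicate 4 lay within the WT range. The summed fibroblast signal was 62205 to 97743 in KO and 93986 to 154611 in WT hearts, with Col3a1 at −0.95 and Col1a1 at −0.59. Of 10 pericyte markers, 9 were lower (median −0.20), Pdgfrb by −0.48 and Rgs5 by −0.06, and their summed signal was 43204 to 53212 in KO and 48215 to 52964 in WT hearts. Of 12 macrophage markers, 12 were lower (median −0.37), with Csf1r at −0.37 and a summed signal of 16922 to 20657 in KO and 21762 to 27929 in WT hearts, and all KO hearts including replicate 4 were under the WT hearts. The 8 markers of cardiac myocytes were all higher, with a median of 0.17 (Tnni3 0.20), and their summed signal was 458669 to 579088 in KO and 395147 to 509059 in WT hearts. No marker of these lists had all of its signals under 50. The part of other cells in the endothelial values was not tested.

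Atrial markers differed between the hearts as well, and less atrial tissue and less of these transcripts per cell cannot be told apart in whole hearts. The 7 atrial markers were lower in KO hearts with a median of −2.12, and their list means were −0.18, −1.77, −3.59 and −1.84 in KO replicates 1 to 4, against −0.25, 0.38, 0.18 and −0.31 in WT replicates 1 to 4. Their summed signal was 20368 to 206707 in KO and 170347 to 278750.0 in WT hearts, Sln and Myl7 had log2 fold changes of −3.15 and −2.36, and Pam, an abundant enzyme of atrial granules, fell in the trended fit (−1.63, trended adjusted p = 0.0368, common-variance adjusted p = 0.334). KO replicate 3 was the lowest heart in atrial markers and in endothelial genes. By list means, KO replicate 1 was within the WT range in atrial markers and below it in endothelial genes. KO replicate 4 was, by list means, below the WT range in atrial markers and within it in endothelial genes. Single atrial markers differed from their list mean. For 3 of the 7, Sln and Pam among them, all 4 KO hearts, KO replicate 1 included, lay below all WT hearts, against 3.72% of all genes. Sln in KO replicate 1 had 20861, with a lowest WT signal of 23815. The 4 ventricular markers had a median of 0.18 (Myl2 0.17). Of 3 endocardial markers 2 were lower (median −0.36), with Npr3 at −0.62, and of 5 lymphatic markers 4 were lower (median −0.31), with Lyve1 at 0.37. Of 7 smooth muscle markers, 5 were lower (median −0.12), with Myh11 at −0.60, and Acta2, smooth muscle actin, rose in the trended fit (0.74, SE 0.16, trended adjusted p = 0.0423, common-variance adjusted p = 0.314). Epicardial markers had 5 of 6 lower (median −0.52, Upk3b −0.73), red cell and platelet markers 2 of 7 (median 0.59, Pf4 −0.27), adipocyte markers 0 of 4 (median 0.61, Adipoq 0.52) and lymphocyte markers 2 of 6 (median 0.50). All signals were under 50 for 2 of these lymphocyte markers and for 1 of the red cell and platelet markers. The part of tissue composition in the endothelial values was not tested.

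**Figure D5:**
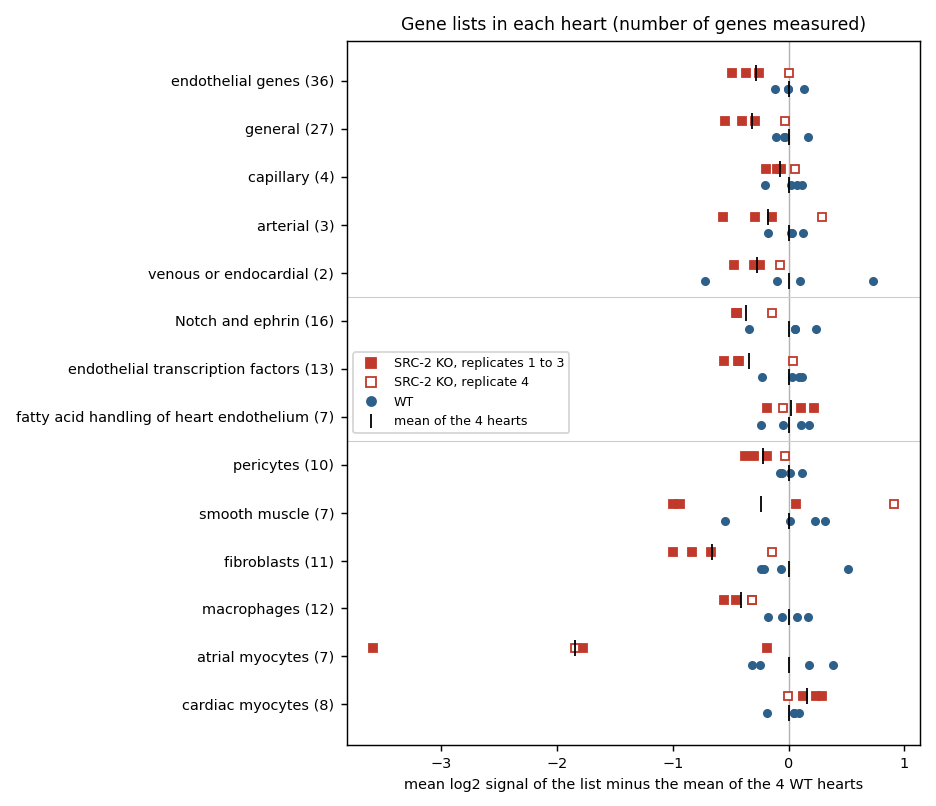
Mean log2 signal per heart and gene list, less the WT mean, with the number of genes measured in brackets. Red squares are KO hearts, with KO replicate 4 open, blue circles are WT hearts and bars are means of 4 hearts. For endothelial genes and fibroblasts KO replicate 4 lies within the WT range and the other KO hearts lie below it, and for atrial myocytes KO replicate 1 is the KO heart nearest to WT.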

How the data were processed

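Total RNA from 4 SRC-2 KO and 4 WT whole hearts had been hybridized to Affymetrix mouse expression arrays. The deposited values are intensities on a linear scale for 45101 probesets, each array scaled by the authors to a 2% trimmed mean of about 500, and Expression Console, Partek and RMA are listed in the submitters' processing notes. The paper names RMA for its own expression estimates, so the linear, scaled values used here need not be those it tested. Log2 values had been assumed, so log2 of the intensities was taken with no floor. Of the probesets, 64 were controls, 9160 were not listed in the annotation used, 932 had several genes and were left out, and 34945 had 1 gene. The brightest probeset by mean log2 signal stood for each of 18194 genes, and 18032 had a current symbol in the GRCm38.p6 table.

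KO was compared with WT using lmFit and eBayes of limma 3.58.1 in R 4.3.3, two-sided, with Benjamini-Hochberg adjustment over all genes and a threshold of 0.05. The p-values measure the spread between hearts of separate animals. The number of arrays limits the precision. Named genes were all members, Ncoa2, a set of names for the further lists and any gene of those lists that passed. Hbb-b1 was not measured singly. The members, lists and tests were chosen with earlier results of these data known.

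Both fits were checked on simulated arrays of 18194 genes. With 100 genes set to a log2 change of 1, the common-variance fit called 30 and the trended fit 37. With 100 set to a log2 change of 2, each called 51. Among the 52 and 44 of these above the median signal, the calls were 26 and 43 by the common-variance fit and 37 and 43 by the trended one. Alternatives were a random variance model, array weights, a replicate block, other probeset rules, a filter and a floor at a signal of 50, median centring, quantile normalization and leaving out each heart. The trended fit of the block, filter, floor and quantile settings was added after the data were seen. Plots used matplotlib 3.10.9 under Python 3.11.15.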

Additional observations from a re-analysis of the deposited data

Results flagged for a closer look

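In 3 of 72 groups of 4 hearts (36 endothelial genes, each genotype apart), the highest or lowest heart stood farther from the others than Dixon's 95% limit, and chance alone flags about 1 in 20 groups. Meox2 in KO replicate 4 had a signal of 899.9, against 455.5 to 484 in the other KO hearts (gap 0.909 of the range). Tcf15 in KO replicate 4 had 1164, against 756 to 805 in the other KO hearts (0.853). Tcf15 in WT replicate 2 had 996, against 1229 to 1263 in the other WT hearts (0.887).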

How the results depend on the processing

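No endothelial gene passed under any alternative to the common-variance fit. In the trended fit, whose count was 0, 2 passed with a replicate block (Cldn5 and Cd34, trended adjusted p = 0.0256 and 0.0481). The share of all genes passing under this block was not obtained, so these calls are not read as a result. Leaving out 1 heart at a time gave 0 to 8 in the trended fit. The 8 came without KO replicate 4, where 1.19% of all genes passed as lower and 0.572% as higher. Deviations of same-numbered hearts correlated by 0.06, −0.08, −0.02 and 0.11, and those of differently numbered hearts by −0.13 to 0.14. Each value rests on 1 KO and 1 WT heart, so they cannot settle whether the replicate numbers pair the arrays. Ncoa2 lost its call in the common-variance fit under this block. Nr2f2 lost its call in the trended fit (trended adjusted p = 0.0697 with the block), while Pam and Acta2 kept theirs (0.0382 and 0.0311). The count of members with every KO heart below every WT heart, 1 in the main setting, was 2 with the mean of all probesets, the second brightest probeset or quantile normalization. After quantile normalization 575 of the 18194 genes had such a split, against 677 in the main setting. For the probeset settings this background was not obtained, so their counts are not read as results. The count of members was 1 to 18 with 1 heart left out, which makes such a split easier by construction. The 18, without KO replicate 4, stand beside 8.28% of all genes. Settings of variance or weights cannot change the count and gave no value. The median was −0.23 to −0.36 under the other alternatives. Of 720 values of single members under alternatives, 706 kept their direction and side of the threshold and 14 changed sign. Much of this was fixed in advance. The trended fit, random variance model, replicate block, filter and floor leave a member's fold change as it is. Other probeset rules do so for the 20 members with 1 probeset.

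With the second brightest probeset, log2 fold changes were −0.0060 for Flt1, 0.020 for Fli1, 1.03 for Notch4, −0.053 for Vegfa, −0.0032 for Angpt2, 0.32 for Flt4, −0.12 for Sox17 and 0.52 for Myh11. With the mean of all probesets they were 0.45 for Notch4, 0.14 for Flt4 and −0.011 for Sox17, and without probesets marked for cross-hybridisation −0.12 for Sox17. Median centring gave 0.060 for Vwf, 0.032 for Aqp1, 0.031 for Flt4, 0.021 for Gpihbp1 and 0.0067 for Rgs5, and quantile normalization 0.0073 for Vwf, 0.033 for Flt4 and −0.023 for Myl2. Leaving out 1 heart gave −0.035 to 0.19 for Flt1, −0.28 to 0.23 for Vwf, −0.067 to 0.029 for Aqp1, −0.066 to 0.21 for Angpt2, −0.17 to 0.047 for Flt4, −0.035 to 0.16 for Sox17 and −0.11 to 0.030 for Gpihbp1. The cause of these changes was not tested.

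With 4 hearts a group, a log2 change of 1 is often missed, and every member had a log2 fold change smaller than that. Members with a fold change near 0 have no settled direction, and dim further probesets do not test their gene.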
